A study of Mus musculus with 50 samples.

Results

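The cytosolic ribosomal protein genes were taken as all genes whose symbol starts with Rpl or Rps followed by a number, together with Rpsa, Rplp0, Rplp1 and Rplp2, leaving out pseudogenes marked -ps and the Rps6k kinases. The rule found 94 of the 56691 genes in the table, and 90 of them passed the filter on low counts that left 17928 genes for testing. Of these 90, 52 carry large subunit (Rpl) symbols and 38 small subunit (Rps) symbols. The 4 members that were not tested were Rpl3l, Rpl39l, Rpl10l and Rps12l1. Rpl3l, the paralog of Rpl3 known from heart and skeletal muscle, had 148 counts over the 50 mice and at most 9 in any mouse. Rpl39l had 13 counts in 8 mice, and Rpl10l and Rps12l1 had none in any of the 50 mice.

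The RNA came from the colon, given in the series design as distal colon, of BALB/c mice (genotype BALBC in the labels) in 5 groups of 10. One group was sham, one received TNBS, a hapten used to induce colitis, with vehicle, and the remaining groups received TNBS with A1007 at 10, 30 or 90 mpk. The submitters name A1007 as an oral, gut-enriched agonist of the aryl hydrocarbon receptor, a receptor that turns on genes when bound by compounds such as dietary indoles. The sources used here do not give what the sham animals received, nor the age and sex of the mice. Each library is bulk poly(A) RNA of whole tissue, so fewer cells of a type and less RNA per cell cannot be told apart.

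Ribosomal proteins coat the ribosomal RNAs of the small and large subunits, and each normally enters the ribosome once, apart from the paired proteins of the stalk. Most of their messages begin with a C followed by a stretch of pyrimidines, the terminal oligopyrimidine (TOP) motif, through which their translation depends on mTOR signalling and on the binding protein Larp1. In the gut, ribosome production is high in crypt cells and in activated immune and stromal cells.

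The start sites of 4 members are shown because the TOP motif is the sequence feature by which this gene group is known. Each line holds 15 bases before and 15 bases from the annotated start in the RefSeq promoter table (GRCm38.p6), 5′ to 3′ on the strand of the gene, with the unbroken pyrimidine run from the start in capitals.

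Rplp2 (chr7:141447636-141447665, +): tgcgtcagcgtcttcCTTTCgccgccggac

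Rpl15 (chr14:18270972-18271001, -): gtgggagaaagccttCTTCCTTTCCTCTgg

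Rps27 (chr3:90213634-90213663, -): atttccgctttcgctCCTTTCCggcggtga

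Rps27rt (chr9:114982725-114982754, -): agaacttatcccttgCTTTCCggcggtgac

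The table held 69 of the 94 member genes. A C followed by at least 4 pyrimidines at the annotated start was found for 15 of the 69 (21.7%), against 813 of 27025 genes in the table (3.01%). The letters CCGGAAG, the core of an ETS factor motif, were found on either strand of the 300 base promoters of 26 of the 69 (37.7%), against 2683 of the 27025 (9.93%). A start annotated a few bases away from the true one misses the motif, so these shares describe these windows only.

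The reading frames of Rps27 and its paralog Rps27l are shown because the balance of this pair differed between the groups. Both are printed over the 225 bases compared, from the first base of the frame (GENCODE M21), and capitals in Rps27l mark the bases that are unlike Rps27.

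Rps27: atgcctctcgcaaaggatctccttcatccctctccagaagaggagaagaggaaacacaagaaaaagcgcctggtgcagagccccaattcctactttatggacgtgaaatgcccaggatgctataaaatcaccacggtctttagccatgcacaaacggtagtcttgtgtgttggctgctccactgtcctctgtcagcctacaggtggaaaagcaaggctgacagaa

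Rps27l: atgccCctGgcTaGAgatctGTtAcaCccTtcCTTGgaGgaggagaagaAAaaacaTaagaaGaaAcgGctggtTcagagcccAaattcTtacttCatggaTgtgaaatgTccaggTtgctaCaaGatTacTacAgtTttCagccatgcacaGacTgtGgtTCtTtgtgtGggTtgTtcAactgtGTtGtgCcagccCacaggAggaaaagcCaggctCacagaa

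The 2 frames shared 172 of 225 bases (76.4%), with no unbroken shared run longer than 11 bases. Rps27rt, a copy of Rps27 on chromosome 9, had a reading frame of 255 bases that was identical to that of Rps27 on chromosome 3. Reads within that frame fit both loci, so the values of Rps27rt depend on how the authors' counting divided them and are uncertain.

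The libraries held 14373337 to 20446967 counts on genes. They fell into 2 kinds by how reads were divided between some genes and their pseudogene loci. In 13 libraries, 64.2 to 75.1% of the reads on Hmgn2, which encodes a nucleosome-binding protein, and its pseudogene Hmgn2-ps lay on the pseudogene, against 13.2 to 22.0% in the other 37. The 13 were 7 sham, 3 vehicle and 3 mice at 10 mpk, with none at 30 or 90 mpk. The labels give all 50 libraries the same batch number, so the split was not tied to a recorded batch. The main counts below are therefore given with all mice and, where stated, without these 13 libraries, which left 3 sham, 7 vehicle and 7 mice at 10 mpk.

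Some members followed this split closely. Rpl29, a small protein of the large subunit, stood at 0.49 to 3.04 FPKM (a level corrected for exon length and library size) in the 13 libraries and at 12.1 to 23.3 in the other 37. Rpl21 stood at 0.93 to 1.58 against 3.16 to 5.9 FPKM. Rpl17 stood at 91.3 to 243 FPKM against 326 to 652. Rpl7a was the last of these 4 members, at 118 to 236 FPKM against 263 to 412. These 4 did not overlap between the 2 kinds of library within sham, within vehicle or within 10 mpk. The share of all tested genes that did not overlap was not computed. The locus Rpl17-ps10 held 23.5 to 58.1% of the reads on itself and Rpl17 in the 13 libraries, against 6.33 to 7.83% in the others. Over all 90 members the median difference between the kinds, averaged over those 3 groups, was 0.41 on the log2 scale, and 5 members differed by more than 1. Neither value was computed over all tested genes, so the split is not shown to be particular to the members.

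Among the tested members, mean levels over the 50 mice ran from 0.365 to 1114 FPKM with a median of 212, and 67 members lay above 100 FPKM. The highest were Rplp1, an acidic protein of the ribosomal stalk, at 1114 FPKM, Rps3a1, a small subunit protein, at 1104, and Rps15, also of the small subunit, at 898. The lowest were Rps23rg1, a retrocopy of Rps23, at 0.365 FPKM, Rpl32l at 1.34 and Rpl21 at 3.48. A low level can reflect where reads were placed. The table lists 322 ribosomal protein pseudogene loci by symbol, which together held 0.201% of the counts against 3.88% on the members. Any such loci under other symbols are not in this count. For 11 members the pseudogene loci held over 10% of the reads on member and loci together. Rps2 had 89.2% at its 12 loci, Rps18 72.7%, Rps10 51.8% and Rpl21 50.5%, so the levels of these 4 small and large subunit genes are uncertain.

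In sham colon the 94 members together took 2.61 to 3.55% of the counts of a library, with a median of 2.97%. In the vehicle group the share was 2.76 to 5.90% (median 3.30%), and at 10 mpk it was 2.57 to 6.01% (median 4.14%). At 30 mpk it was 3.75 to 5.72% (median 4.85%), so every one of the 10 mice lay above the highest sham mouse. At 90 mpk the share was 3.30 to 4.48% (median 3.71%), with 9 of 10 mice above the highest sham mouse. In the vehicle group 3 of 10 mice and at 10 mpk 6 of 10 did so. The vehicle and 10 mpk groups thus ran from sham-like values up to those of the 30 mpk group.

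**Figure D1:**
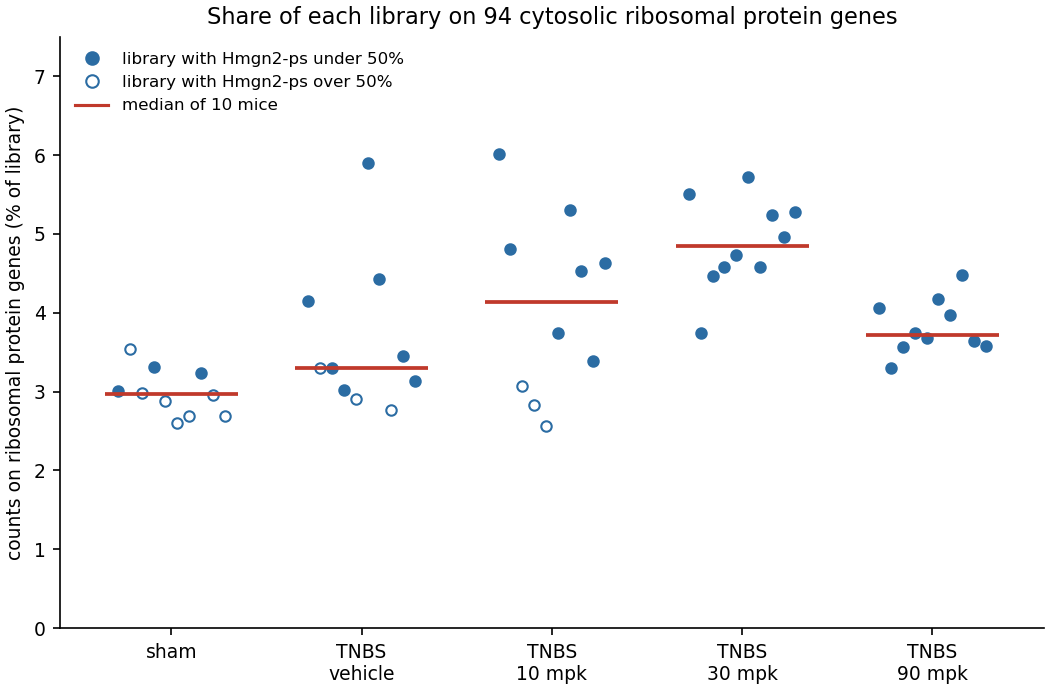
Share of each library's counts on the 94 ribosomal protein genes (% of library, vertical axis) for 50 mice in 5 groups. Each point is 1 mouse, open points are the 13 libraries with over 50% of the Hmgn2 pair on Hmgn2-ps, and red lines are group medians of 10 mice. The 10 mice at 30 mpk sit between 3.75 and 5.72%, all above the highest sham mouse at 3.55%.

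The 13 libraries were low within the 10 mpk group, where 3 such libraries held 2.57 to 3.07% and the other 7 held 3.39 to 6.01%. In the vehicle group the 3 held 2.76 to 3.30% and the other 7 held 3.02 to 5.90%. In sham the 7 held 2.61 to 3.55% and the other 3 held 3.01 to 3.31%, so in these 2 groups the kinds overlapped.

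The 30 mpk group against sham asks how far the treated, TNBS-exposed colon differed from colon without colitis. Ribosomal protein genes were higher at 30 mpk nearly throughout. By edgeR's quasi-likelihood test with Benjamini-Hochberg adjustment over 17928 genes, 87 of 90 members rose and none fell, where 31.3% of all tested genes rose. Of 1111 tested genes outside the member list with transcripts under 1000 bases, 799 (71.9%) rose, beside 64 of 64 members of that length. The median log2 fold change of the members was 0.77 (1.71-fold), against 0.02 over all tested genes. Both subunits took part, with 50 of 52 large subunit members (median 0.76) and 37 of 38 small subunit members (median 0.79) called higher. The p-values here and below measure the spread between the libraries of a group, each taken as 1 mouse.

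Without the 13 libraries, with 3 sham mice left, 85 of 90 members rose, with a median of 0.72, where 18.8% of all tested genes rose. The 5 that were not called were Rpl21 (0.27), Rpl7l1 (-0.10), Rps4l, Rps23rg1 and Rpl32l. In FPKM, 59 of 90 members had all 10 mice at 30 mpk above all 10 sham mice, a pattern found in 5.08% of all tested genes.

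The proteins of the stalk, which recruits elongation factors to the large subunit, illustrate the sizes. Rplp1 lay at 583 to 885 FPKM in sham (median 683) and at 948 to 1983 (median 1518) at 30 mpk. No mouse of one group reached into the other, and the log2 fold change was 1.22 ± 0.11 (SE, n = 10 per group, edgeR adjusted p = 1.21e-08). Rplp2, its partner on the stalk, rose by 1.07 ± 0.10 on the log2 scale, Rplp0, the protein that anchors both, by 0.72 ± 0.07, and Rpl12, at the base of the stalk, by 0.72 ± 0.07. Without the 13 libraries the 4 rose by 1.17, 1.01, 0.64 and 0.64, so all of the stalk list was called either way.

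Rpl5 and Rpl11 bind the 5S ribosomal RNA and, when free of the ribosome, restrain the p53 regulator Mdm2. Rpl5 lay at 198 to 259 FPKM in sham (median 222) and at 274 to 315 (median 290) at 30 mpk, with no overlap. Its log2 fold change, 0.42 ± 0.05 (edgeR adjusted p = 6.16e-07), was among the smaller ones. Rpl11 lay at 123 to 168 FPKM in sham and at 168 to 262 at 30 mpk, and rose by 0.71 ± 0.07 on the log2 scale.

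The 6 members of the nascent chain exit side (Rpl19, Rpl23a, Rpl26, Rpl31, Rpl35 and Rpl39) surround the mouth of the tunnel through which the new protein leaves the ribosome. All 6 rose, with a median of 0.80 (0.72 without the 13 libraries). Rpl39, a very small protein of the tunnel wall, had the largest change of the 6 at 1.05 ± 0.08, and Rpl23a, a docking site of the signal recognition particle, had the smallest at 0.57 ± 0.07.

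Rps27a is made as a fusion with ubiquitin and so supplies both a small subunit protein and ubiquitin. It lay at 123 to 274 FPKM in sham (median 166) and at 343 to 562 (median 465) at 30 mpk. The groups did not overlap, and the log2 fold change was 1.38 ± 0.15 with all libraries and 0.87 ± 0.13 without the 13. Rps27, a zinc-binding small subunit protein, lay at 163 to 298 FPKM in sham (median 217) and at 362 to 711 (median 543) at 30 mpk. Its log2 fold change of 1.36 ± 0.12 (edgeR adjusted p = 1.54e-08) changed little, to 1.26 ± 0.18, without the 13 libraries.

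Some of the members with large fold changes at 30 mpk against sham had smaller ones when the 13 libraries were left out. Rpl29 had a log2 fold change of 1.82 ± 0.61 with all mice and 0.31 ± 0.11 without the 13 libraries. Rpl30, a large subunit protein, went from 1.60 ± 0.25 to 0.79 ± 0.15, and Rpl17 from 1.40 ± 0.25 to 0.63 ± 0.12. Rpl21 went from 1.23 ± 0.27 to 0.27 ± 0.11, with an edgeR adjusted p of 0.0608. All but Rpl21 kept their call, at less than the size seen with all mice.

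**Figure D2:**
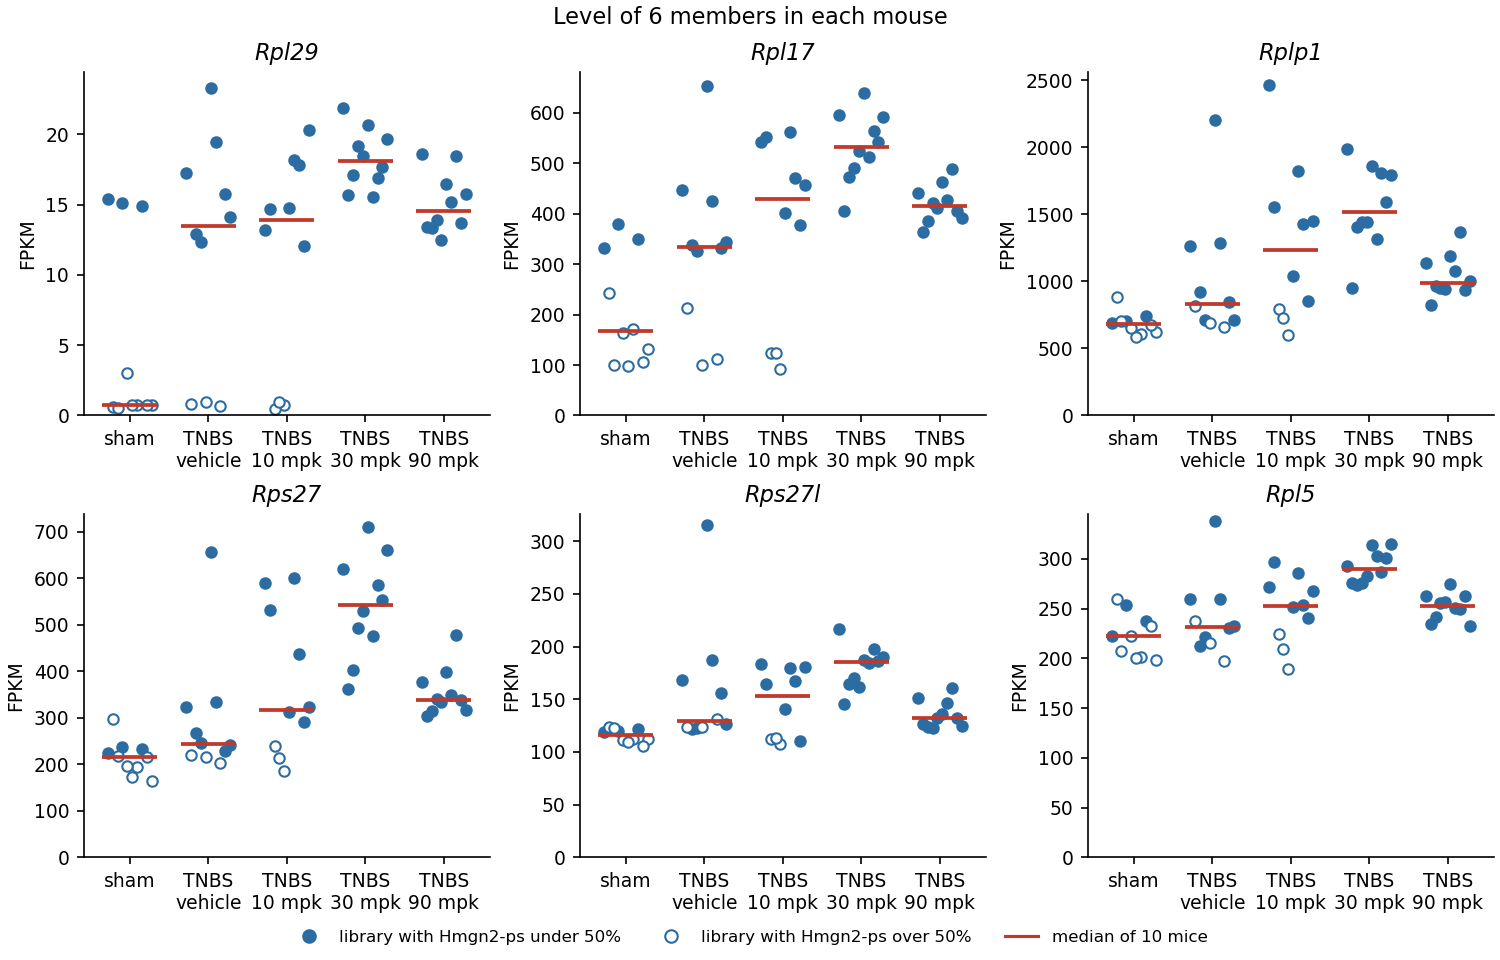
Level of 6 members (FPKM, linear vertical axes from 0) in each of 50 mice by group. Points are mice, open points the 13 libraries with over 50% of the Hmgn2 pair on Hmgn2-ps, and red lines medians of 10 mice. Rpl29 and Rpl17 separate by kind of library within sham, vehicle and 10 mpk. For all 6 members the 30 mpk mice lie above all sham mice of both kinds. For Rpl29 the gap is narrow, with 15.58 FPKM in the lowest mouse at 30 mpk and 15.42 in the highest sham mouse.

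The 90 mpk group against sham showed the same direction at a smaller size. With all mice 84 of 90 members rose and none fell, with a median of 0.34, where 23.7% of all tested genes rose. Without the 13 libraries 49 rose and 1, Rpl7l1 (-0.20 ± 0.05), fell, with a median of 0.25, where 10% of all tested genes rose. The 5 members with the largest fold changes were Rpl29 (1.48 ± 0.59), Rpl30 (1.04 ± 0.23), Rpl17 (0.99 ± 0.24), Rpl21 (0.92 ± 0.27) and Rps27a (0.78 ± 0.15). In the same order these were -0.02, 0.23, 0.23, -0.04 and 0.27 without the 13 libraries, and there only Rpl17 and Rps27a were called (edgeR adjusted p = 0.0494 and 0.0434). Comparisons with sham share the same sham mice, so their counts are not independent of each other.

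The highest dose against the middle dose asks whether the members followed the dose. They did not, and all 90 members had a lower fitted level at 90 than at 30 mpk, with a median log2 fold change of -0.44 (0.738-fold). All 20 libraries of these 2 groups were of the same kind. In a fit of these 2 groups alone, 86 of 90 members fell, where 10.9% of all tested genes fell. Leaving out each of the 20 mice in turn gave 86 in every fit, with medians from -0.48 to -0.40. The share of all tested genes that fell was not computed for those fits. In the fit that shares its estimate of the spread with the vehicle and 10 mpk mice, 1 member fell, Rps27rt, where 0.273% of all tested genes fell. The fold changes were the same in both fits. For Rplp1 the value was -0.65 with an SE of 0.22 in the shared fit and 0.11 in the fit of 2 groups, with edgeR adjusted p = 0.132 and 0.000587.

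The fit of 2 groups described every functional list alike. All 4 stalk proteins fell (median -0.50), as did Rpl5 (-0.27 ± 0.05) and Rpl11 (-0.47 ± 0.07), all 6 proteins of the exit side (median -0.45) and Rps27a (-0.60 ± 0.08). Rplp1 lay at 826 to 1371 FPKM (median 985) at 90 mpk against 948 to 1983 at 30 mpk, so single mice of the 2 groups overlapped. Rps27 lay at 304 to 478 FPKM (median 339) at 90 mpk against 362 to 711, and fell by 0.67 ± 0.11 on the log2 scale. The 4 members not called were Rps4l (-0.36), Rpl32l (-0.22), Rps23rg1 (-0.17) and Rpl7l1 (-0.10, 95% interval -0.18 to -0.02).

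The vehicle group against sham asks what TNBS alone did. With all mice 19 of 90 members rose and none fell, with a median of 0.35, where 18.4% of all tested genes rose, so the share of members called was close to that of all genes. The 5 largest were Rpl30 (0.90 ± 0.32), Rps27a (0.73 ± 0.25), Rps12 (0.73 ± 0.21), Rplp1 (0.61 ± 0.21) and Rpl41 (0.60 ± 0.21), and the smallest adjusted p of the 5 was that of Rps12, 0.0112. Without the 13 libraries edgeR called no member, where 0.72% of all tested genes rose, and the median was 0.40. Unadjusted, 1 of the 90 then had p under 0.05. In vehicle mouse 9 the members took 5.90% of the library, and without it the count was 11 and the median 0.17. Leaving out other single mice moved the count as well, from 4 without vehicle mouse 2 to 39 without vehicle mouse 4. The share of all tested genes that rose was not computed for fits with 1 mouse left out.

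Within the 13 libraries alone, with 7 sham and 3 vehicle mice, the median of the members was -0.01. There 1 of the 90 members rose, where 11.9% of all tested genes rose. The spread in the vehicle group was wide on the level of single genes as well. Rplp1 lay at 663 to 2200 FPKM (median 832), with the lowest mice inside the sham range and the highest above every mouse at 30 mpk.

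The 10 mpk group against sham gave 72 of 90 members higher and none lower with all mice (median 0.48), where 21.2% of all tested genes rose. Without the 13 libraries 10 rose, with a median of 0.59, where 4.82% of all tested genes rose. In the 13 alone the median was -0.03. The 5 largest with all mice were Rpl30 (0.97), Rps12 (0.93), Rps27a (0.91), Rplp1 (0.90) and Rplp2 (0.86). Rplp1 ran from 602 to 2465 FPKM within the 10 mpk group, wider than in any other group.

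**Figure D3:**
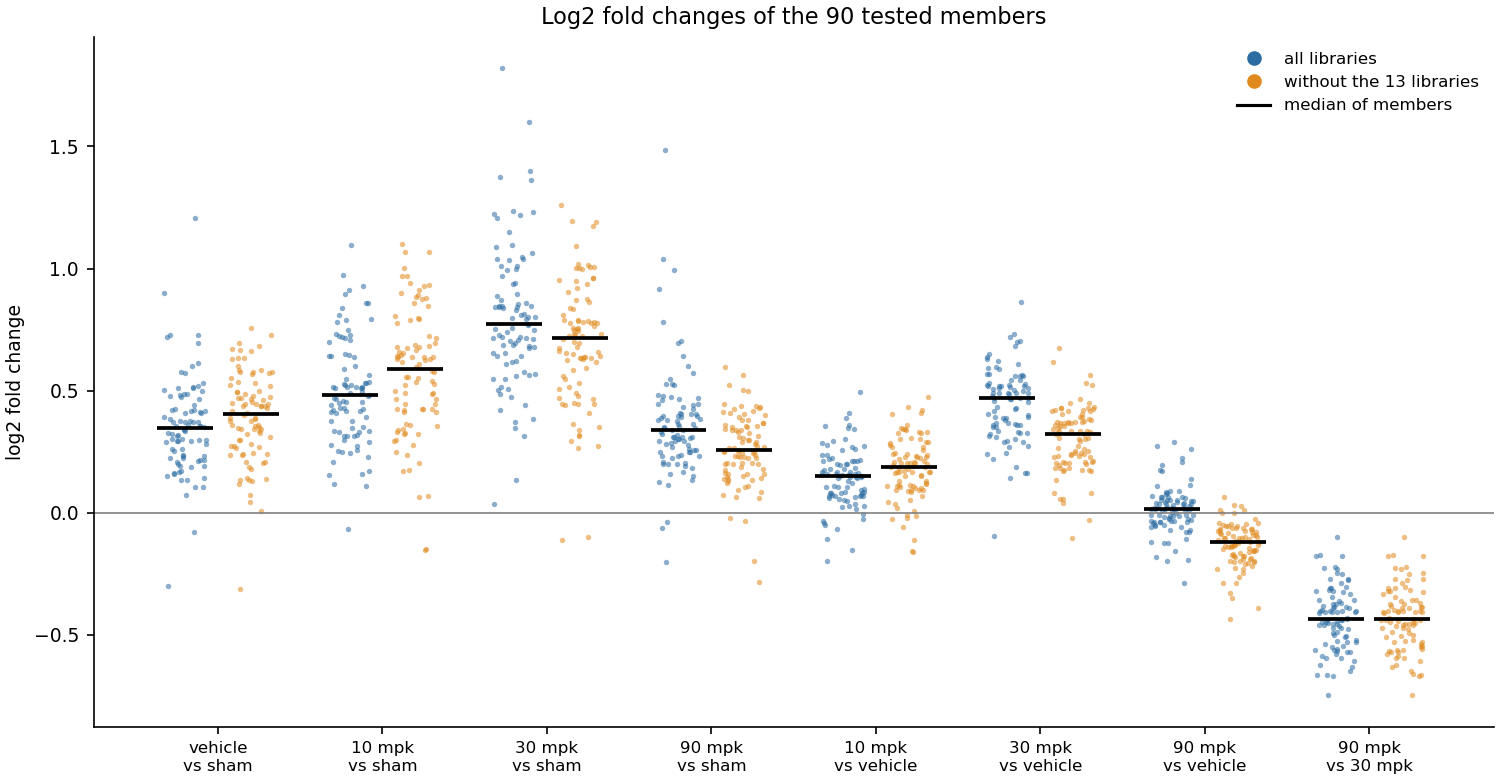
Log2 fold changes (vertical axis) of the 90 tested members in 8 comparisons. Each point is 1 member, blue with all libraries, orange without the 13 libraries, and black bars are medians over members. The medians at 30 mpk against sham are 0.77 and 0.72, and all points of 90 mpk against 30 mpk lie below 0.

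The 3 doses were next set against the TNBS vehicle group, which they share, to ask what A1007 added to TNBS. At 30 mpk 59 of 90 members rose and none fell, with a median of 0.47 (1.38-fold), where 13.3% of all tested genes rose. The 5 largest were Rps27 (0.86 ± 0.21), Rps28 (0.73 ± 0.20), Rps29 (0.72 ± 0.22), Rpl30 (0.70 ± 0.24) and Rpl35a (0.70 ± 0.21). Of these, Rps27, Rps28 and Rps29 are small subunit proteins and Rpl30 and Rpl35a large subunit ones. Without the 13 libraries 14 rose, with a median of 0.32, where 7.18% of all tested genes rose, and Rps27 (0.68 ± 0.20), Rps28 (0.56 ± 0.19) and Rpl30 (0.45 ± 0.16) were among them. In fits of these 2 groups without the 13 libraries, leaving out vehicle mouse 9 gave 79 members higher (median 0.53), and leaving out any other mouse gave 2 to 13 (medians 0.24 to 0.37). Among these fits the one without vehicle mouse 9 stood apart. The 14 above came from the fit that shares its estimate of the spread among the TNBS groups, so it is not their reference. The share of all tested genes that rose was not computed for the fits with 1 mouse left out. Their counts are thus not shown to be particular to the members.

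Rps27 shows the overlap. It lay at 203 to 656 FPKM in the vehicle group (median 243) and at 362 to 711 at 30 mpk, and 1 vehicle mouse, number 9 at 656 FPKM, lay inside the 30 mpk range. The vehicle mouse with the next highest level was at 334 FPKM, below all 10 mice at 30 mpk.

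At 10 mpk against vehicle no member rose by edgeR's test and 1 by DESeq2, where 2.73% of all tested genes rose. One fell, Rpl7l1 (-0.20 ± 0.06), where 3.06% of all tested genes fell, and the median was 0.15. Unadjusted, 3 of the 90 members had p under 0.05. At 90 mpk against vehicle no member rose by edgeR or DESeq2, where 6.91% of all tested genes rose, and Rpl7l1 alone fell (-0.20 ± 0.06), where 11.7% of all tested genes fell. Unadjusted, no member was higher and 1 was lower at p under 0.05. The median was 0.01 with all mice and -0.12 without the 13 libraries. For Rplp1 the log2 fold change at 90 mpk against vehicle was -0.04 with a 95% interval of -0.49 to 0.41, which does not show equality. Rpl7l1, named as a paralog of Rpl7 but described as an assembly factor, thus moved apart from the subunit genes.

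Between the doses, 30 against 10 mpk gave 1 member higher, the small subunit protein Rps7 (0.49 ± 0.13, edgeR adjusted p = 0.0358), where 0.429% of all tested genes rose. The median was 0.29 with all mice and 0.12 without the 13 libraries, and without them the call of Rps7 was lost. Of the reads on Rps7 and its 3 pseudogene loci, 30.5% lay on the loci, so its level is uncertain. At 90 against 10 mpk no member fell by edgeR's test, where 0.0725% of all tested genes fell, and the median was -0.14. Unadjusted, 1 member had p under 0.05 there, and DESeq2 called 1 lower.

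Ribosomal protein messages are short, and short messages as a class moved the same way in these libraries. For 84 tested members a transcript length was available, with a median of 751 and a maximum of 3706 bases, against a median of 2755 over 15005 tested genes, and 64 of the 84 were under 1000 bases. At 30 mpk against sham the non-member genes of up to 600 bases had a median log2 fold change of 0.63, those over 1000 and up to 1500 bases 0.30, and those over 2500 bases -0.12. The members of up to 600 bases had a median of 0.98 and those over 1000 and up to 1500 bases 0.70. The medians of the members were thus above those of other genes of like length in these bins. Of the 1111 non-members under 1000 bases, 71.9% rose at 30 mpk, 51.9% at 90 mpk, 44.6% at 10 mpk and 29.6% in vehicle, each against sham. Of the 64 members of that length, 64, 63, 53 and 14 (21.9%) rose in the same order. At 30 mpk against vehicle, 30.2% of these non-members and 42 of the 64 members rose.

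The same ordering was seen at 30 mpk against vehicle, where the shortest non-members had a median of 0.36 and the shortest members 0.53. At 90 against 30 mpk the signs were the opposite, with -0.36 for the shortest non-members and -0.55 for the shortest members. Among the 84 members, the fold change at 30 mpk against sham had a Spearman correlation of -0.49 with transcript length. This describes genes of the same libraries, which are not independent.

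**Figure D4:**
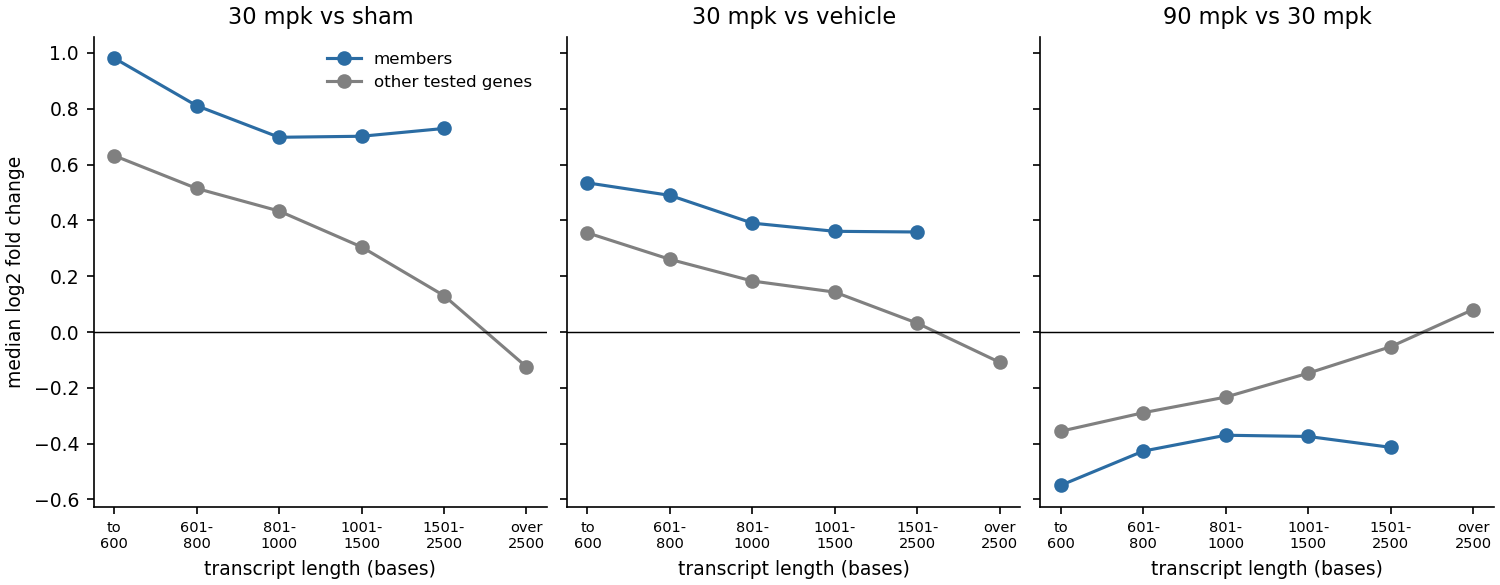
Median log2 fold change (vertical axes) in bins of transcript length (bases, horizontal axes) for members (blue) and other tested genes (grey) in 3 comparisons. Bins hold 5 to 30 members, and the single member over 2500 bases is left out. Short genes outside the member list move the same way as the members, which lie further from 0 in each bin shown.

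When a trend over transcript length, fitted in each library on genes that are not members, was taken out together with the 13 libraries, 53 members rose and 1 fell at 30 mpk against sham (median 0.26), where 14.7% of all tested genes rose. Against vehicle, 16 rose at 30 mpk (median 0.16), where 6.35% of all tested genes rose. At 90 against 30 mpk 55 fell (median -0.19), where 6.67% of all tested genes fell. Each of these was a fit of the 2 groups compared. At 90 against 30 mpk 86 fell in such a fit with the trend kept. With the trend removed the medians were thus closer to 0 in all 3 comparisons. The trend was taken out only for genes with a transcript length, 84 of the 90 members and 15005 of the 17928 tested genes. The remaining genes entered these counts and shares uncorrected. In the vehicle, 10 mpk and 90 mpk groups the 3 mice with the highest member share were also the 3 with the highest share on other genes under 1000 bases, and in sham and at 30 mpk 2 of 3 were. Vehicle mouse 6, with the highest such share of its group (13.3%), also held 46331 CPM (counts scaled to library size) of summed pancreatic acinar markers, whose part was not tested. The part of RNA quality or library preparation in this was not tested.

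The tested paralogs and retrocopies did not all follow their partners. Rps27l lay at 106 to 123 FPKM in sham (median 116) and at 145 to 217 at 30 mpk (median 186), a log2 fold change of 0.67 ± 0.06, while Rps27 changed by 1.36. Rps27l is induced by p53 in other settings. As a share of the FPKM of the pair, Rps27l made up 29.3 to 40.7% in sham (median 35.4%) and 31.3 to 40.5% in vehicle (median 35.2%). At 30 mpk the share was 20.9 to 29.1% (median 25.4%), below every sham and vehicle mouse. At 90 mpk it was 25.1 to 29.6% (median 28.2%), and at 10 mpk 23.1 to 36.6% (median 29.5%). The reads that may be shared between Rps27 and Rps27rt bear on this ratio. Transcript length, 345 bases for Rps27 and 575 for Rps27l, may bear on it too, and its part was not tested.

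Rpl22l1, the paralog of Rpl22, kept its share of the pair, with medians of 42.6, 44.5, 43.4, 43.6 and 41.1% from sham through vehicle to 90 mpk. Rpl22l1 rose by 0.80 ± 0.07 and Rpl22 by 0.72 ± 0.06 on the log2 scale at 30 mpk against sham. Rpl36al, a paralog of Rpl36a, made up 30.2 to 33.4% of its pair by group median, and rose by 0.84 ± 0.07 at 30 mpk against sham. Rpl7l1 made up 6.81% of its pair with Rpl7 in sham by median and 4.84% at 30 mpk, and its own level did not pass the test there (0.03 ± 0.05). Its levels, 22.0 to 27.4 FPKM in sham and 22.6 to 27.1 at 30 mpk, covered the same range. Rps27rt had a log2 fold change of 0.55 ± 0.22 at 30 mpk against sham and 1.19 ± 0.19 without the 13 libraries.

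Other genes of the protein synthesis machinery were read against the members. Fau and Rack1 are small subunit components whose symbols lie outside the rule. Both rose at 30 mpk against sham, and both fell at 90 against 30 mpk in the fit of 2 groups. Fau, a ubiquitin-like fusion to a small subunit protein, had a log2 fold change of 0.91 ± 0.10 against sham, and Rack1, a scaffold on the small subunit, 0.55 ± 0.06. Of 20 other TOP messages, 15 rose and none fell at 30 mpk against sham (median 0.37), where 31.3% of all tested genes rose. Without the 13 libraries 13 of the 20 rose, where 18.8% of all tested genes rose. Tpt1, a growth-associated protein, had 0.65 ± 0.06 and the elongation factor Eef1b2 0.70 ± 0.07. Eef1a1, the most abundant elongation factor, had 0.08 ± 0.05 and Eef2, the translocation factor, 0.09 ± 0.04, and neither passed the test. At 2789 ± 178 FPKM in sham and 2888 ± 122 at 30 mpk (SD, n = 10), Eef1a1 differed by less than the spread between mice.

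Genes that build ribosomes or control them were called in both directions. Of 24 ribosome assembly factors, 6 rose and 11 fell at 30 mpk against sham (2 and 11 without the 13 libraries), where 31.3% of all tested genes rose and 27.7% fell. Nop16 (0.45 ± 0.07) and Ebna1bp2 (0.38 ± 0.06) rose, and Wdr43, part of the small subunit processome, fell (-0.33 ± 0.05). Of 9 genes of RNA polymerase I and Myc, 1 rose and 4 fell, among them Polr1a, the largest polymerase I subunit (-0.39 ± 0.05). Of 14 genes of mTOR and TOP translation control, 2 rose and 8 fell (2 and 7 without the 13 libraries). Larp1, which binds TOP messages, fell by 0.34 ± 0.04 on the log2 scale, Larp4 by 0.66 ± 0.08 and Tsc2, a brake on mTOR, by 0.30 ± 0.04. No assembly factor rose at 30 mpk against vehicle and 8 fell, where 13.3% of all tested genes rose and 18.1% fell, while 59 members rose. The 8449 genes over 2500 bases outside the member list had medians of -0.12 at 30 mpk against sham and -0.11 against vehicle. The part of transcript length in the falls of these lists was not tested.

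Markers of cell types moved alongside the members in some comparisons. In the 30 mpk group against sham, 8 of 9 macrophage, 7 of 8 neutrophil, 7 of 8 B cell, 7 of 8 T cell and 7 of 8 smooth muscle markers rose. Of 10 colonocyte markers 6 fell and 2 rose. Of all tested genes 31.3% rose and 27.7% fell. Of the other lists, 5 of 6 fibroblast, 4 of 6 endothelial and 9 of 9 tested pancreatic acinar markers rose. Of 7 goblet markers 2 rose and 2 fell, and of 8 proliferating markers 2 rose and 2 fell. Of 6 plasma cell markers 2 rose, and of 10 enteric neuron and glia markers 4 rose and 2 fell. The summed fibroblast markers were 973 to 1673 CPM in sham and 1878 to 4216 at 30 mpk, with no overlap. The summed acinar markers, 40.3 to 94.7 and 112 to 3371 CPM, did not overlap either, whereas the endothelial ones, 141 to 263 and 201 to 325 CPM, did. The summed B cell markers were 68.6 to 370 CPM in sham and 93.3 to 434 at 30 mpk. The summed smooth muscle markers were 4565 to 6779 and 4486 to 9891 CPM. The summed neutrophil markers were 5.62 to 11.4 and 11.98 to 46.9 CPM, and the summed macrophage markers 131 to 189 and 205 to 299 CPM. For T cells the sums were 19.98 to 56.5 and 26.6 to 76.6 CPM, and for colonocytes 11578 to 15253 and 9364 to 13589 CPM. No marker was at 0 in all mice of a group, and their part in the members' change was not tested.

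At 90 against 30 mpk, 86 members and 10.9% of all tested genes fell in the fit of 2 groups. In that fit none of the neutrophil, macrophage, B cell, T cell and smooth muscle markers was called, and 3 of 10 colonocyte markers fell. The summed neutrophil markers were 12.98 to 45.4 CPM at 90 mpk, and the summed B cell markers 120 to 437 CPM, against 11.98 to 46.9 and 93.3 to 434 CPM at 30 mpk. At 30 mpk against vehicle 8 of 8 neutrophil markers fell, from sums of 29.2 to 4406 CPM in the vehicle group, as did 7 of 9 macrophage and 5 of 6 fibroblast markers. In that comparison 4 of 8 B cell and 4 of 8 smooth muscle markers rose, as the members did. Of 10 colonocyte markers 2 rose, and of 10 enteric neuron and glia markers 4 rose and 1 fell. Of 8 proliferating markers 3 fell. Of all tested genes 13.3% rose and 18.1% fell there. The part of these markers was not tested.

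Across the 50 mice most members moved together. The log2 CPM of a member had a median Pearson correlation of 0.97 with the median of the 81 core members, and 76 of 90 had over 0.9. The 4 below 0.5 were Rpl7l1 (0.22), Rps23rg1 (0.32), Rpl32l (0.45) and Rps27rt (0.46). The genes outside the rule most like the core were Gm4332 and Gm15772, predicted genes without an assigned function here, both at 0.98, and Rack1 at 0.98. Some genes next in rank are labelled predicted pseudogenes. Whether Gm4332 and Gm15772 share sequence with members was not tested. The least like were Ncor1 at -0.95, Lcor at -0.95 and Ankrd11 at -0.94, whose transcripts of 8852, 4663 and 7995 bases were far longer than the members'. These correlations share libraries, depth and the transcript length trend, and describe these 50 mice only.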

How the data were processed

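Poly(A) RNA from 50 mouse colons (10 per group) was sequenced at 14373337 to 20446967 counts per library, which sets the precision for members of low level. Per the submitters' processing notes, cutadapt 1.9.1, HISAT2 2.2.1, HTSeq 0.6.1 and DESeq2 were used with build GRCm39; the sources used here give neither their settings nor the strandedness of counting. The deposited table holds raw read counts per gene by the authors, and FPKM values by the authors corrected for exon length and library size. The exon length of each gene is a further column, deposited as other.

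Counts were tested in R 4.3.3 with edgeR 4.0.16 (TMM scaling over all 50 mice, filterByExpr at a minimum count of 10, robust quasi-likelihood fit, Benjamini-Hochberg over 17928 genes, call at adjusted p under 0.05). Comparisons with sham were fitted on those 20 mice, and comparisons among the TNBS groups on 40 mice. Contrasts between doses were added later. limma 3.58.1 and DESeq2 1.42.0 served as alternatives, with other scalings, a rank-sum test, acinar marker limits, a replicate block, and each mouse left out in turn. FPKM are used for levels, with 0.1 or 1 added in log2 fits. The members, lists and tests were chosen with earlier results of these data known. The 13 libraries and the length trend were chosen after seeing the data: over 50% of Hmgn2 pair reads on Hmgn2-ps, and a lowess of span 0.3 over GENCODE M21 transcript lengths. Named were the 5 called members with the largest fold changes each way per comparison, the fixed short lists and partners, the 3 highest and 3 lowest by level, 3 genes per other list by p, and the 3 most and least alike; the 4 members that separate by library kind, and those not called, were named after their values were seen. Scripts were tested on simulated data.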

Additional observations from a re-analysis of the deposited data

Results flagged for a closer look

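Within groups of 10 mice, 190 sets of values were examined for a mouse standing far from the others by Dixon's ratio, and 29 stood out, where chance alone gives about 1 in 20, or 9.5. The 29 are not independent, since members move together and most of the 29 come from 1 vehicle mouse.

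Vehicle mouse 9 held the highest share of counts on the members in its group, 5.897%, with the next mouse at 4.426%. The same mouse was the highest of its group for Rpl11 at 283.47 FPKM, Rpl22 at 170.99, Rpl22l1 at 176.63, Rpl35a at 35.8, Rpl36a at 257.57, Rpl39 at 471.11, Rpl41 at 1392.68, Rpl5 at 337.53, Rplp1 at 2199.71, Rplp2 at 257.7, Rps15 at 1515.17, Rps27 at 656.18, Rps27a at 607.6, Rps27l at 315.38, Rps28 at 161.81, Rps29 at 748.75 and Rps7 at 366.78 FPKM. For Rps27 the next vehicle mouse was at 333.76 FPKM.

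Sham mouse 3, among the 13 libraries with many reads on Hmgn2-ps, was the highest of its group for Rpl39 at 188.74 FPKM, Rplp1 at 885.14, Rps15 at 764.85, Rps28 at 91.11 and Rps29 at 341.58 FPKM. At 10 mpk mouse 9 was the highest for Rpl36al at 124.45 FPKM, Rpl41 at 1598.5 and Rplp2 at 369.1. At 90 mpk mouse 9 was the highest for Rps29 at 543.25 FPKM. Among low members, vehicle mouse 2 was the highest for Rpl32l at 2.78 FPKM, and vehicle mouse 8 the lowest for Rps4l at 1.61 FPKM.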

How the results depend on the processing

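Counts, medians and named members were refitted with 1 choice changed at a time where the mice left allowed it. In 1 setting the length trend and the 13 libraries were left out together, in fits of the 2 groups compared. The limits are the split of the libraries, which leaves 3 sham mice on 1 side, the transcript length trend, wide vehicle and 10 mpk groups, and pseudogene loci that share reads with members. No call at 30 mpk could be had with acinar markers up to 100 CPM, since none of its 10 mice lay under that limit. The cause of the differences below was not tested. The share of all tested genes called changed with the setting too, and the member counts below are given without it. For vehicle against sham the share higher was 18.4% with all mice and 0.72% without the 13 libraries. It was 11.9% in the 13 alone and 13.9% with read assignment as a term.

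For vehicle against sham, 19 members rose in the edgeR fit, and the count was 5 with no filter on low counts, 31 by DESeq2, 6 by a rank-sum test, 0 with the replicate block, 1 with acinar markers up to 100 or up to 1000 CPM, 0 without the 13 libraries, 1 in the 13 alone (median -0.010) and 0 with read assignment as a term. For 10 mpk against vehicle it was 1 instead of 0 by quantile normalization with limma, DESeq2, both log2 FPKM fits and the replicate block. For 30 mpk against vehicle it was 14 without the 13 libraries and 15 with the term, instead of 59. Without the 13 libraries and the length trend it was 16, in a fit of the 2 groups. For 90 mpk against vehicle it was 1 with acinar markers up to 100 CPM and 2 with the length trend removed, instead of 0.

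For 30 against 10 mpk, 1 member rose, and 6 did with quantile normalization, 5 by DESeq2, 4 in both FPKM fits, 3 by the rank-sum test, 12 with the replicate block, 2 in the fit of 2 groups, 2 with the length trend removed, and 0 without the 13 libraries or with the term. For 90 against 30 mpk, 1 member fell, and 2 did with quantile normalization, 11 by DESeq2, 87 by the rank-sum test and 53 with the replicate block. The count was 13 without the 13 libraries and 42 with the term. In the fit of 2 groups it was 86, and 55 there with the length trend removed. The median of -0.44 was -0.19 with the length trend removed, with or without the 13 libraries. For 90 against 10 mpk, 1 fell by DESeq2 and in the fit of 2 groups, instead of 0.

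Against sham, 10 mpk gave 30 by the rank-sum test, 1 with acinar markers up to 100 CPM, 39 with the length trend removed, 10 without the 13 libraries, 0 in the 13 alone (median -0.030) and 14 with the term, instead of 72. At 30 mpk the count was 53 without the 13 libraries and the length trend, instead of 87, and the median 0.26, or 0.35 with the trend alone removed. At 90 mpk the count was 49 without the 13 libraries and 48 with the term, instead of 84, and the median 0.17 with the length trend removed.

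Signs reversed for single members. With the length trend removed, Rpl10 was at -0.0078 for 10 mpk and -0.053 for 30 mpk against sham, Rpl7l1 at -0.21 and Rps27rt at -0.18 for 30 mpk, Rps27l at -0.013 for 10 mpk and -0.034 for 90 mpk, and Rpl22l1 at -0.00080 for 90 mpk. With the 13 libraries out as well, 30 mpk against sham gave -0.074 for Rpl10, -0.11 for Rpl21, -0.22 for Rpl29 and -0.34 for Rpl7l1. For 90 mpk against sham, Rpl21 was at -0.036 and Rpl29 at -0.021 both without the 13 libraries and with the term, and Rps27rt at 0.44 without them. In the 13 alone, 10 mpk against sham gave -0.023 for Rpl10, -0.033 for Rpl11, -0.082 for Rpl12, -0.023 for Rpl22, -0.073 for Rpl35a, -0.057 for Rpl36a, -0.044 for Rpl41, -0.017 for Rpl7, -0.066 for Rplp0, -0.0053 for Rplp2, -0.031 for Rps27l, -0.033 for Rps28, -0.048 for Rps3a1, -0.0072 for Rps3a2, -0.035 for Rps4x and -0.039 for Rps7.

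Leaving out 1 mouse moved the vehicle against sham count between 4 and 39: 5 without sham 2 or 9, 6 without sham 6 or 8, 8 without sham 10, 29, 4, 36, 39, 5, 34 and 11 without vehicle 1, 2, 3, 4, 6, 8 and 9. For 10 mpk against vehicle it ran from 0 to 5, with 5 without vehicle 9 and 1 without mouse 2, 5 or 10 at 10 mpk. For 30 against 10 mpk it ran from 0 to 15, with 15 without mouse 9, 4 without mouse 6 or 7 and 0 without mouse 2, 3, 4, 8 or 10 at 10 mpk, and 2 without mouse 1 and 0 without mouse 2, 4, 5, 6, 7 or 8 at 30 mpk. For 90 against 30 mpk it ran from 0 to 6, with 6 without mouse 1 and 0 without mouse 6 or 7 at 30 mpk or mouse 1, 2, 3 or 5 at 90 mpk. For 30 mpk against vehicle the count ran from 44 to 84 and for 30 mpk against sham from 86 to 87.

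The replicate numbers did not pair the mice. The deviations of same-numbered mice correlated at -0.28 to 0.50 over 100 pairs, with a median of -0.01, and a mouse matched its own number best in 27 of 200 trials. No pair of libraries was identical.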

Other observations

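Mitochondrial ribosomal proteins, which build the separate ribosome of the mitochondrion, moved in the same direction as the cytosolic ones, at a smaller size. Of 84 genes whose symbols start with Mrpl or Mrps and a number, 80 were tested. At 30 mpk against sham 66 rose and 1 fell by edgeR's quasi-likelihood test, with a median log2 fold change of 0.37, where 31.3% of all tested genes rose. Without the 13 libraries 48 rose and 1 fell (median 0.34), where 18.8% of all tested genes rose. At 90 against 30 mpk 62 of 80 fell and none rose in the fit of 2 groups, with a median of -0.25, where 10.9% of all tested genes fell. At 30 mpk against vehicle 24 rose and 2 fell, where 13.3% of all tested genes rose and 18.1% fell. At 90 mpk against vehicle 1 fell and none rose, where 11.7% of all tested genes fell and 6.91% rose. The 1111 tested genes under 1000 bases outside the cytosolic list had a median of 0.51 at 30 mpk against sham. Their median was -0.28 at 90 against 30 mpk. Of these short genes 71.9% rose at 30 mpk against sham and 30.2% against vehicle. The part of transcript length in the changes of the mitochondrial list was not tested.

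Targets of p53 were read because Rpl5 and Rpl11 are tied to that pathway. Of 10, 4 rose and 3 fell at 30 mpk against sham, where 31.3% of all tested genes rose and 27.7% fell, with Bbc3, which promotes cell death, at 1.00 ± 0.15 and Bax, its effector, at 0.67 ± 0.09, and Mdm2, the p53 regulator, at -0.29 ± 0.04.

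The split of the libraries was also seen for a pair of genes with no tie to the ribosome. The pseudogene Kansl2-ps held 11.03 to 18.3% of the reads on itself and Kansl2 in the 13 libraries and 0.259 to 1.31% in the other 37. The share of counts on genes under 1000 bases other than the members had a median of 6.29% in both kinds of sham library.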
